A study of Mus musculus with 10 samples.

Results

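The proteasome genes were examined here in RNA of mouse cerebral cortex, as the 44 genes of 12575 in the deposited table whose symbol begins with Psma, Psmb, Psmc, Psmd, Psme, Psmf or Psmg and a number. By the particle that their products build, they were 7 genes of the 20S alpha ring, 7 constitutive and 1 inducible gene of the 20S beta ring, 6 ATPases and 11 non-ATPases of the 19S cap, 3 assembly chaperones of the 19S base, 4 activators, 1 inhibitor and 4 assembly chaperones of the 20S core. Psma8, Psmb8, Psmb9 and Psmb11 were not analysed here, so that Psmb10 stood alone for the inducible subunits. The libraries came from 5 BMAL1 aKO mice (Aldh1l1-CreERT2;Bmal1 fl/fl, in which tamoxifen lets Cre delete the clock gene Bmal1 in cells that use the astrocyte promoter Aldh1l1) and from 5 Cre- littermates that carry the floxed allele alone. Both groups were C57BL/6, received tamoxifen and were 4 months old by the labels, and the cohorts were of mixed sex. Whole cortex was sequenced, so that neurons and other cells with an intact Bmal1 gene contribute to every value.

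The proteasome degrades proteins that have been tagged with ubiquitin. Its 20S core is a barrel of stacked rings, in which outer alpha rings gate the entry and inner beta rings carry the proteolytic sites, while the 19S cap binds ubiquitin, removes it and feeds the unfolded chain into the barrel with the force of its ATPases. Cells under interferon exchange the constitutive catalytic beta subunits for inducible ones, which gives the immunoproteasome that serves antigen presentation, and proteasome function in neurons and glia has long been studied for the clearance of misfolded proteins.

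BMAL1 binds, with CLOCK or NPAS2, the E-box with the letters CACGTG, and 4 proteasome genes had this motif in the promoter window of 250 bases before to 50 bases after their RefSeq start. They are printed first because they are the genes of the set on which the deleted factor's motif lies. Each line gives up to 100 bases 5′ to 3′ on the gene's strand, ending no later than the last base before the start, with the E-box in capitals. Psmg3 and Psmg4, the assembly chaperones with the largest log2 fold changes of the set, are printed beside them with the last 100 bases before their start, in which this motif was not found (RefSeq sequences, build GRCm38.p6).
Psmb10, chr8:105938456-105938555, minus strand: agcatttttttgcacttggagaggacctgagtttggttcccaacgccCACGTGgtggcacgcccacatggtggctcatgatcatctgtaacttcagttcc
Psma4, chr9:54950672-54950771, plus strand: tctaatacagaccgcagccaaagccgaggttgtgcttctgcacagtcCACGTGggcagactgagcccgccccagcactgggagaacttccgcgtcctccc
Psmd9, chr5:123228092-123228189, plus strand: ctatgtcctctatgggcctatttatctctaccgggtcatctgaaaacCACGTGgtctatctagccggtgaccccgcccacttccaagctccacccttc
Psme3, chr11:101316122-101316212, plus strand: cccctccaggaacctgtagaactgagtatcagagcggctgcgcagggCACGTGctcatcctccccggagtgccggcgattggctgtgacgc
Psmg3, chr5:139826895-139826994, minus strand: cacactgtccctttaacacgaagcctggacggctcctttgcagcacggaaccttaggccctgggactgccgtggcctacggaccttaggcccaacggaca
Psmg4, chr13:34162864-34162963, plus strand: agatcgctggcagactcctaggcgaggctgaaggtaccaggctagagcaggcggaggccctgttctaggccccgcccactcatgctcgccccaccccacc
The E-box began 116 bases before the start of Psmb10, 140 before that of Psma4, 51 before that of Psmd9 and 44 before that of Psme3. These 4 were 10.8% of the 37 proteasome genes with a promoter in the table (7 had none), against 8.09% of all 27025 genes in it. The log2 fold changes of the 4 genes ran from -0.04 to 0.13 and their adjusted p from 0.42 to 0.87 (limma). That of Psma4, 0.10 in the weighted fit, was 0.29 without weights, 0.21 without Cre- replicate 1 and 0.23 without Cre- replicate 5. An antioxidant response element with the letters TGACNNNGC, the kind of site that NFE2L1 and NFE2L2 use, was found on either strand in 6 of the 37 (16.2%, against 13.99% of all genes), and a CCAAT box, which NF-Y binds, in 12 (32.4%, against 41.1%). Either strand was searched for all 3 motifs, and the motifs were allowed to overlap. A match describes letters only.

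The libraries held 21844770 to 48295715 reads, as recovered from the step of the CPM values (100% of values were whole within 0.1 read). Of the 12575 genes, 12573 passed a filter of more than 1 CPM (counts per 1000000 reads) in at least 4 libraries. All 44 proteasome genes were among them, which is no result, since nearly every gene of the deposited table passed. Defining markers of neurons, astrocytes, microglia, oligodendrocytes and endothelium were detected in every library, none at 0. Of the markers listed for these cells, 1 changed, the astrocyte connexin Gja1 (log2 fold change 0.44, adjusted p = 0.0273, limma). The summed level of the astrocyte markers was 5768 to 7115 CPM in BMAL1 aKO and 4496 to 6201 CPM in Cre- libraries. Slc1a2 made up most of it, with means of 5259 and 4541 CPM. In the same order, the microglial sum was 191 to 262 and 191 to 305 CPM, and the neuronal sum 5528 to 6877 and 5369 to 6789 CPM. Snap25 (means of 3324 and 3212 CPM) and Syt1 (1426 and 1611 CPM) made up most of the neuronal sum. The oligodendrocyte sum was 3690 to 5314 and 3236 to 5744 CPM, and the endothelial sum 196 to 238 and 198 to 242 CPM. Such a sum follows its most abundant genes. Liver markers summed to 8.19 to 1222 CPM in BMAL1 aKO and 9.10 to 890.2 CPM in Cre- libraries, and choroid plexus markers to 9.95 to 1045 CPM and 8.87 to 917 CPM, with Ttr shared by both lists. Arntl, the gene of BMAL1, averaged 34.5 ± 2.93 CPM in BMAL1 aKO and 34.2 ± 2.25 CPM in Cre- libraries (SD, n = 5 each), a level that is no check on the labels, since reads of all cells and of the whole gene enter it. The library with the lowest sample weight, Cre- replicate 3 (0.181, against 7.19 for Cre- replicate 1), also had the lowest share of mitochondrial reads, 6.19%, against 9.29 to 19.9% in the other 9 libraries.

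The 44 proteasome genes were detected in every library, over a wide range of levels. Per kb of exon, the ATPase Psmc5, a motor subunit of the cap, stood highest at 89.0 CPM per kb in BMAL1 aKO and 82.1 CPM per kb in Cre- libraries. The ATPase Psmc1 followed with 59.0 and 52.7, then Psma6 of the alpha ring with 46.6 and 39.1, Psmd7 of the lid with 43.2 and 39.7, and the nuclear activator gene Psme3 with 40.3 and 39.3 CPM per kb. The lowest were the assembly chaperones Psmg3 (1.67 and 1.23 CPM per kb), Psmd9 (1.74 and 1.92) and Psmd5 (2.64 and 2.97), so that the highest gene stood 58.9-fold above the lowest. Per kb, genes whose products occupy one ring in equal copies spanned a range. It was 2.28-fold for the constitutive beta genes (Psmb6 over Psmb3), 3.07-fold for the alpha genes (Psma6 over Psma2) and 6.16-fold for the ATPases (Psmc5 over Psmc2). These folds depend on exon length. Psma6 and Psma2 averaged 52.9 and 51.3 CPM, with 1234 and 3673 exon bases. Psmc5 and Psmc2 averaged 119 and 69.9 CPM, with 1394 and 5031 exon bases. Psmb6 and Psmb3 averaged 56.6 and 30.5 CPM, with 1872 and 2300 exon bases. Whether RNA levels differ within a ring was not tested. The exon length is that of all annotated exons of a gene, so a level per kb is low where rarely used exons are long.

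**Figure D1:**
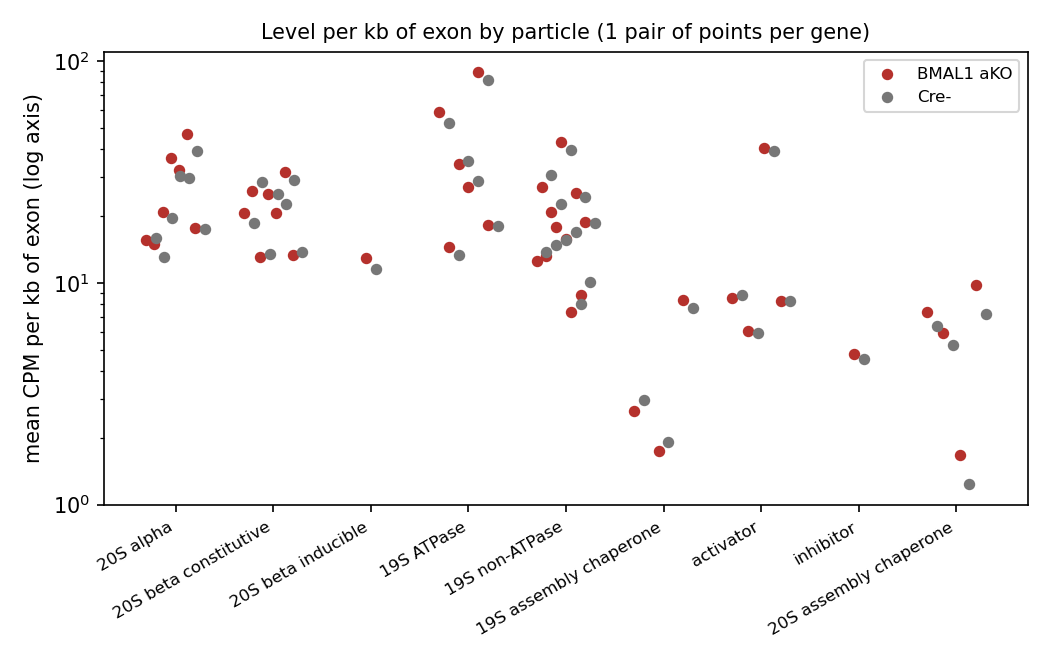
Mean level of each of the 44 proteasome genes in CPM per kb of exon (log axis) by particle, with a red point for BMAL1 aKO and a grey point for Cre- libraries beside it. The points of a pair lie close together in all particles, while genes of the set differ by 58.9-fold.

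No proteasome gene passed the threshold between BMAL1 aKO and Cre- libraries. Of the 44 genes, 0 were called at an adjusted p of at most 0.1 (limma), where 42 of all 12573 genes were, which is 0.334% (36 higher, 0.286%, and 6 lower, 0.0477%). At an unadjusted p below 0.05 there were 4 of the 44 (Psmg4, Psmg3, Psmd1 and Psmd13), against 16.8% of all genes. The groups overlapped in each of the 44, while 1% of all genes had no overlap (0.62% higher and 0.382% lower in BMAL1 aKO). A fit of the recovered reads with voomWithQualityWeights also called 0, with 2 at an unadjusted p below 0.05. The summed level of the 44 genes was 2302, 2288, 2285, 2361 and 2440 CPM in replicates 1 to 5 of BMAL1 aKO, against 2331, 2321, 2330, 2243 and 2228 CPM in those of Cre-. In bulk tissue, fewer cells of a type and less RNA per cell cannot be told apart. Nothing in the labels says that the libraries of a group come from separate litters or extractions, so the p-values measure the spread between these libraries.

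The intervals show how large a difference these libraries leave room for under the sample weights of the fit. In the Cre- group the weight was 7.19 for replicate 1 and 0.181 to 1.52 for the others. The bounds therefore rest largely on 1 Cre- library. In 42 of the 44 genes the whole 95% interval of the log2 fold change lay within -0.5 and 0.5. Psmg3 and Psmg4 were the exceptions. The median width of the interval was 0.35 for the 44 genes and 0.42 for all genes tested. Intervals without weights, and the share of all genes within these bounds, are not given here. The log2 fold change was above 0 in 27 and below 0 in 17 genes, with a median of 0.03, while that of all genes tested was -0.04 and 38.4% of all genes were above 0. The spread between libraries was modest: the median coefficient of variation was 11.9% for the proteasome genes and 16.4% for all genes. Of the 44 signs, 18 were the same in every other fit that tested the gene, which was 25 fits for 16 of them and 24 for Psmg3 and Psmg4, whose levels fell under the stricter filter of 5 CPM. Single libraries weighed heavily on these small values: in 41 of the 44 genes, Psmc2, Psmg2 and Psmg3 excepted, leaving out 1 library moved the log2 fold change by over 1.5 times, and in 15 it turned the sign.

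**Figure D2:**
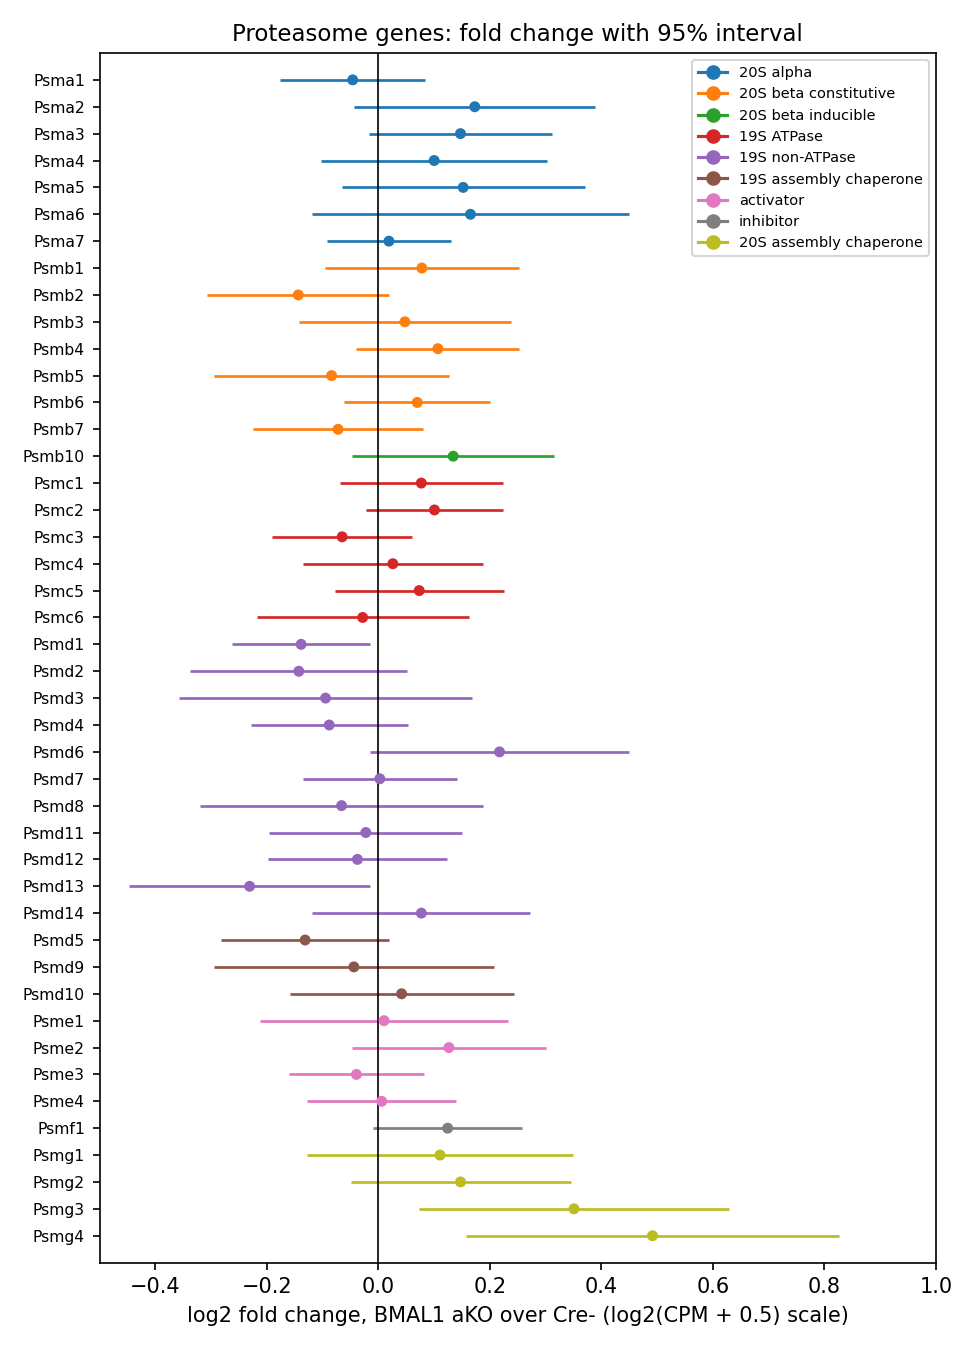
Log2 fold change of BMAL1 aKO over Cre- libraries (5 each) for the 44 proteasome genes, in the order of their particles, with bars for the 95% interval from limma. Psmg3 and Psmg4 stand farthest to the right, the non-ATPase genes lie mostly left of 0, and 4 of the 44 intervals do not include 0.

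The alpha ring genes, which form the gate of the barrel, had a median log2 fold change of 0.15, with 6 of 7 above 0 and none called. The largest was that of Psma2, 0.17 (interval -0.04 to 0.39, adjusted p = 0.387, limma), at 47.01, 49.95, 48.7, 61.8 and 65.7 CPM in BMAL1 aKO (replicates in order, here and in all such lists), against 48.7, 64.4, 37.7, 39.6 and 49.02 CPM in Cre- libraries. Its log2 fold change was 0.08 without BMAL1 aKO replicate 4, 0.07 without replicate 5 and 0.0026 without both, which was then also the median of the ring. In Psma2, BMAL1 aKO replicates 4 and 5 and Cre- replicate 2 were high, and Cre- replicates 3 and 4 low. In Psma6 the same libraries were high and low, at 46.2, 45.5, 51.1, 66.98 and 77.6 CPM in BMAL1 aKO, against 53.4, 64.2, 37.7, 39.5 and 46.5 CPM in Cre- libraries. Its log2 fold change was 0.17 (interval -0.12 to 0.45, adjusted p = 0.527, limma), and -0.10 without BMAL1 aKO replicates 4 and 5. Psma4, the alpha gene with an E-box, was at 96.2, 72.1, 83.9, 92.3 and 88.5 CPM in BMAL1 aKO, against 82.7, 86.98, 52.5, 55.7 and 81.8 CPM in Cre- libraries. In 3 of 5 BMAL1 aKO libraries it lay above all Cre- libraries (log2 fold change 0.10, interval -0.10 to 0.30, adjusted p = 0.597, limma). Psma7 was nearly flat across the 10 libraries, with 54.3 ± 1.29 CPM in BMAL1 aKO and 53.7 ± 1.12 CPM in Cre- libraries (SD, n = 5 each).

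The constitutive beta genes had a median log2 fold change of 0.05, with 4 of 7 above 0. The catalytic sites are encoded by 3 of them. Psmb5, which encodes the chymotrypsin-like site, was at 18.03, 19.6, 18.5, 17.8 and 18.7 CPM in BMAL1 aKO, against 20.3, 13.6, 27.5, 23.3 and 16.8 CPM in Cre- libraries. All 5 BMAL1 aKO libraries lay inside the Cre- range, and the log2 fold change was -0.08 (interval -0.29 to 0.13, adjusted p = 0.673, limma). Psmb6, which encodes the caspase-like site, was at 63.9, 63.3, 54.8, 56.99 and 56.8 CPM in BMAL1 aKO, against 55.8, 49.6, 57.8, 53.1 and 54.2 CPM in Cre- libraries. BMAL1 aKO replicates 1 and 2 lay above all Cre- libraries, and the gene had a log2 fold change of 0.07 (interval -0.06 to 0.20, adjusted p = 0.562, limma). Psmb7, which encodes the trypsin-like site, was at 39.99, 48.01, 50.4, 45.6 and 44.4 CPM in BMAL1 aKO, against 50.05, 41.2, 50.2, 47.4 and 45.5 CPM in Cre- libraries, and its log2 fold change was -0.07 (interval -0.22 to 0.08, adjusted p = 0.612, limma). Among the structural beta genes, Psmb2 had the lowest value, at 30.8, 36.3, 31.8, 27.3 and 29.7 CPM in BMAL1 aKO, against 34.4, 29.1, 38.3, 37.1 and 32.5 CPM in Cre- libraries (log2 fold change -0.14, interval -0.31 to 0.02, adjusted p = 0.348, limma).

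Psmb10, the inducible gene that takes the place of Psmb7 in the immunoproteasome (chr8:105935735-105938444 of GRCm38, minus strand), was at 19.8, 19.2, 20.5, 25.1 and 25.2 CPM in BMAL1 aKO, against 20.4, 17.9, 20.1, 19.9 and 19.6 CPM in Cre- libraries. BMAL1 aKO replicates 4 and 5 stood above all Cre- libraries by a clear gap, replicate 3 barely did, and replicates 1 and 2 lay inside their range. The log2 fold change was 0.13 (interval -0.05 to 0.32, adjusted p = 0.42, limma), and -0.02 without BMAL1 aKO replicates 4 and 5. Set against Psmb7 per kb of exon, the log2 ratio of Psmb10 averaged -0.06 ± 0.24 in BMAL1 aKO and -0.25 ± 0.05 in Cre- libraries (SD, n = 5 each), a difference of 0.19. This ratio was -0.01, -0.32, -0.30, 0.14 and 0.18 in BMAL1 aKO, against -0.29, -0.20, -0.31, -0.25 and -0.21 in Cre- libraries. The fitted difference of Psmb10 and Psmb7 was 0.03 without BMAL1 aKO replicates 4 and 5. Against the summed level of Psmb5, Psmb6 and Psmb7, the ratio of Psmb10 was -2.36 ± 0.23 in BMAL1 aKO and -2.50 ± 0.13 in Cre- libraries. The summed microglial and astrocyte markers given above overlap between the groups. Of the listed astrocyte markers, Gja1 alone did not overlap, at 225.6 to 277.1 CPM in BMAL1 aKO and 175.9 to 204.4 CPM in Cre- libraries. The others overlapped and had both signs, with log2 fold changes of 0.16 (Slc1a2), 0.0021 (Slc1a3), -0.04 (Aldh1l1) and -0.20 (Aqp4). The part of these cells in the level of Psmb10 was not tested.

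**Figure D3:**
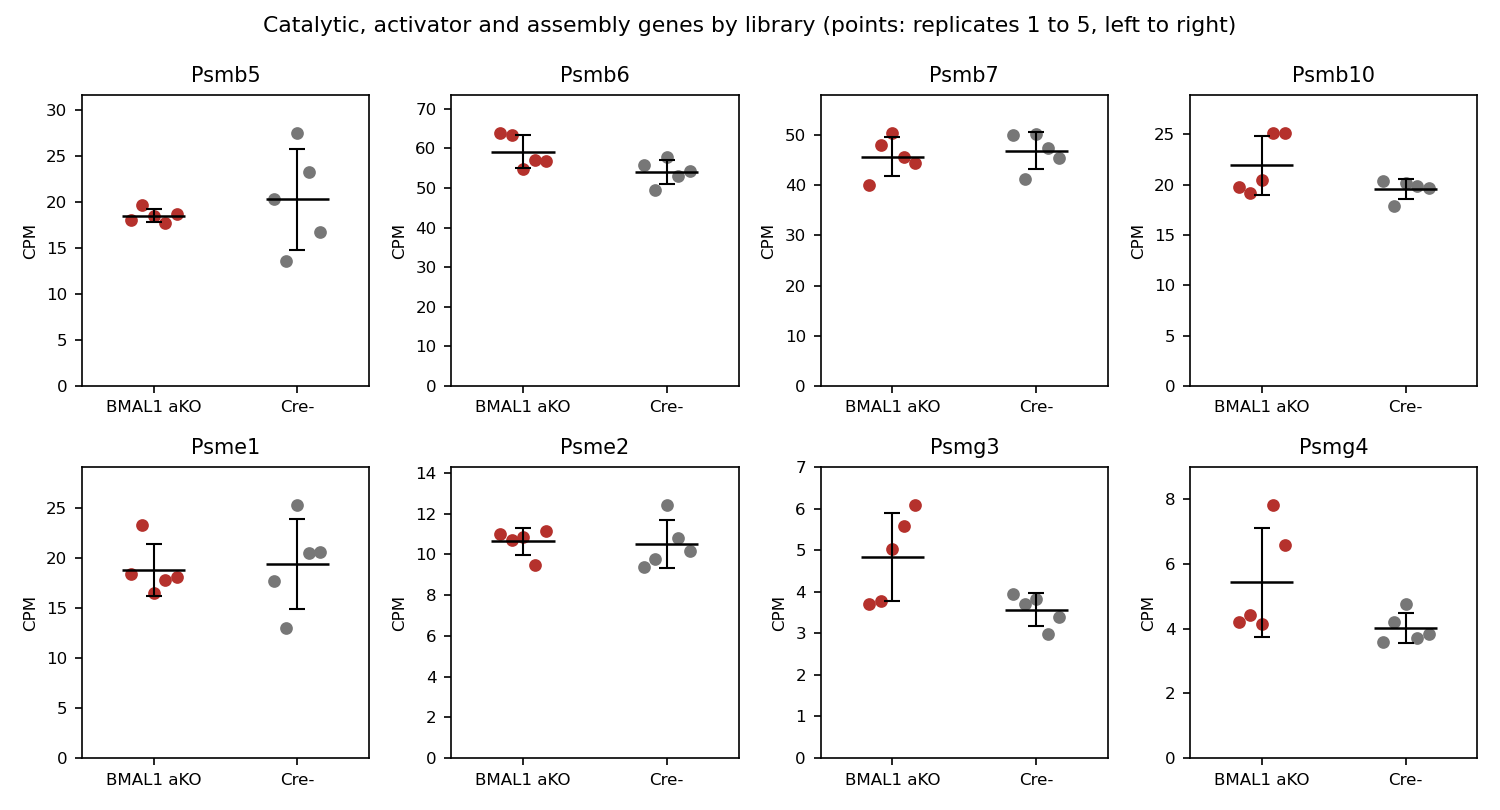
CPM of the catalytic beta genes Psmb5, Psmb6, Psmb7 and Psmb10, the activator genes Psme1 and Psme2 and the assembly chaperones Psmg3 and Psmg4, with 1 point for each library (BMAL1 aKO red and left, Cre- grey and right), the mean as a line and the SD as a bar (n = 5 each). The groups overlap in all 8 genes, and 2 or 3 of the 5 BMAL1 aKO points of Psmb10, Psmg3 and Psmg4 lie above the Cre- points.

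The 6 ATPases of the 19S cap, its motors, had a median log2 fold change of 0.05 with 4 above 0, and the 11 non-ATPases of -0.07 with 3 above 0 and 8 below. With the mitochondrial share of the libraries as a covariate the medians were 0.04 and 0.02, and without BMAL1 aKO replicate 5 they were -0.0029 and -0.02. None was called, and the difference between both sets was not tested. Psmd13, a lid subunit, had the lowest value of all 44, at 34.3, 31.02, 30.7, 26.1 and 26.2 CPM in BMAL1 aKO, against 35.4, 24.3, 41.99, 39.3 and 29.3 CPM in Cre- libraries. BMAL1 aKO libraries lay inside the Cre- range, and the log2 fold change was -0.23 (SE 0.10, interval -0.45 to -0.02, adjusted p = 0.273, limma). It was -0.09 without Cre- replicate 1 and -0.02 with the mitochondrial share as a covariate (adjusted p = 0.938, limma). Without Cre- replicates 2 and 3 it was called (-0.27, adjusted p = 0.0807, limma) in a fit whose sample weights did not converge and which called 1511 genes. Psmd13 overlaps exons of Sirt3 on the other strand, and the kit does not mark the strand.

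Psmd1 and Psmd2, the large scaffold subunits of the base, lay on the low side too. Psmd1 was at 82.8, 89.98, 93.8, 90.7 and 98.2 CPM in BMAL1 aKO, against 103, 104, 101, 94.4 and 96.1 CPM in Cre- libraries. In 4 of 5 BMAL1 aKO libraries it lay below all Cre- libraries, and no other gene of the set lay past the Cre- range on 1 side in as many (log2 fold change -0.14, SE 0.06, interval -0.26 to -0.01, adjusted p = 0.258, limma). Psmd2 was at 127, 110, 112, 95.1 and 102 CPM in BMAL1 aKO, against 121, 89.95, 165, 139 and 105 CPM in Cre- libraries (log2 fold change -0.14, interval -0.34 to 0.05, adjusted p = 0.427, limma). Psmd6, another lid subunit, had the opposite sign, at 44.7, 44.5, 43.3, 58.5 and 59.7 CPM in BMAL1 aKO, against 42.9, 61.1, 37.4, 34.3 and 43.1 CPM in Cre- libraries (log2 fold change 0.22, SE 0.11, interval -0.02 to 0.45, adjusted p = 0.323, limma). Cre- replicate 2 was its highest library, and the value was 0.11 without BMAL1 aKO replicate 4 or without replicate 5, and 0.03 without both. Of the ATPase genes with the highest levels, Psmc5 had a value of 0.07 (adjusted p = 0.603, limma) and Psmc1 of 0.08 (adjusted p = 0.568).

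Of the chaperones that assemble the 19S base, Psmd5 was at 18.7, 20.3, 18.6, 19.5 and 18.1 CPM in BMAL1 aKO, against 21.1, 19.6, 24.5, 23.2 and 18.9 CPM in Cre- libraries. It lay below all Cre- libraries in 3 of 5 BMAL1 aKO libraries (log2 fold change -0.13, interval -0.28 to 0.02, adjusted p = 0.353, limma). Psmd9 and Psmd10 had values of -0.04 and 0.04.

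The genes of the PA28 activator, Psme1 and Psme2, lie 5911 bases apart on chromosome 14, and interferon is known to induce them together. Psme1 was at 18.3, 23.3, 16.5, 17.7 and 18.1 CPM in BMAL1 aKO, against 17.7, 12.96, 25.3, 20.4 and 20.5 CPM in Cre- libraries (log2 fold change 0.01, interval -0.21 to 0.23, adjusted p = 0.968, limma). Psme2 was at 10.99, 10.7, 10.8, 9.47 and 11.2 CPM in BMAL1 aKO, against 9.40, 9.80, 12.4, 10.8 and 10.2 CPM in Cre- libraries (log2 fold change 0.13, interval -0.05 to 0.30, adjusted p = 0.431, limma). The value of Psme2 was 0.02 without weights and 0.03 without Cre- replicate 1, its lowest library and the one with the highest weight. Neither gene separated the groups. Psme3, which encodes the activator of the nucleus and carries an E-box, was at 119 ± 4.00 CPM in BMAL1 aKO and 116 ± 6.995 CPM in Cre- libraries, and Psme4, which encodes PA200, at 69.1 ± 5.91 and 69.2 ± 3.30 CPM (SD, n = 5 each). Of the BMAL1 aKO libraries of Psme4, 2 lay above and 2 below all Cre- libraries. Psmf1, the inhibitor PI31, was at 30.6 ± 1.87 CPM in BMAL1 aKO and 29.2 ± 1.13 CPM in Cre- libraries (log2 fold change 0.12, interval -0.01 to 0.26, adjusted p = 0.323, limma).

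The 4 chaperones that assemble the 20S core had the highest median of the particles, 0.25, and all 4 were above 0. The median was 0.14 without BMAL1 aKO replicates 4 and 5. They were also the genes with the lowest levels in CPM. Psmg4 (chr13:34162964-34178173 of GRCm38, plus strand) was at 4.21, 4.41, 4.13, 7.83 and 6.59 CPM in BMAL1 aKO, against 3.58, 4.21, 4.75, 3.71 and 3.83 CPM in Cre- libraries. Only BMAL1 aKO replicates 4 and 5 lay above all Cre- libraries, and the others lay inside their range. The log2 fold change was 0.49 (SE 0.16, interval 0.16 to 0.83, adjusted p = 0.183, limma). It was 0.29 without BMAL1 aKO replicate 4 and 0.18 without replicates 4 and 5. Without BMAL1 aKO replicate 3, Psmg4 was called (0.69, adjusted p = 0.0573, limma) in a fit that called 844 genes, and without Cre- replicates 2 and 3 it was called as well (0.51, adjusted p = 0.0701, limma).

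Psmg3 (chr5:139823592-139826885, minus strand) was at 3.71, 3.78, 5.02, 5.58 and 6.09 CPM in BMAL1 aKO, against 3.95, 3.71, 3.83, 2.98 and 3.39 CPM in Cre- libraries. BMAL1 aKO replicates 3, 4 and 5 lay above all Cre- libraries. The log2 fold change was 0.35 (SE 0.13, interval 0.07 to 0.63, adjusted p = 0.212, limma), and 0.16 without replicates 4 and 5. These values rest on 81 to 191 reads for Psmg3 and 92 to 211 reads for Psmg4 in a library, so that counting error alone was up to 11.1% and 10.4% of a value. Psmg1 and Psmg2, which encode partners in the other chaperone pair, had log2 fold changes of 0.11 (interval -0.13 to 0.35) and 0.15 (interval -0.05 to 0.35).

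The largest difference of the set between 2 libraries lay within 1 group. Component 1 of the 44 genes over the 10 libraries held 70.0% of their variance (58.5% for all genes). Which genes and libraries shape this component was not computed. Psmd3, a non-ATPase of the lid, had the largest difference between Cre- replicates 3 and 2 of the 44, 1.402 on the log2 scale. It was at 83.9, 70.5, 63.3, 54.4 and 55.6 CPM in BMAL1 aKO, against 68.3, 43.7, 116, 80.8 and 59.3 CPM in Cre- libraries. Psmg1 ran the other way, at 9.51, 9.45, 8.77, 11.3 and 10.4 CPM in BMAL1 aKO, against 9.23, 12.1, 6.01, 6.31 and 9.09 CPM in Cre- libraries. Its difference between Cre- replicates 3 and 2 was -0.96. In both genes the highest and the lowest of the 10 libraries were Cre- replicates 2 and 3. Both genes were picked as the extremes of this difference, so this follows largely from the choice and is no result.

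Between Cre- replicates 3 and 2, 11 genes differed by less than -0.5 on the log2 scale (Psma2, Psma3, Psma4, Psma5, Psma6, Psmc6, Psmd6, Psmd10, Psmd12, Psmd14 and Psmg1) and 8 by more than 0.5 (Psmb5, Psmd2, Psmd3, Psmd8, Psmd9, Psmd11, Psmd13 and Psme1). These sets were chosen after their values were seen and are a description. Their places in Cre- replicates 2 and 3 follow largely from this choice and are no result. All 11 genes of the first set were above their own mean in BMAL1 aKO replicates 4 and 5 and in Cre- replicate 2, and below it in Cre- replicates 3 and 4. All 8 of the second set were below their mean in BMAL1 aKO replicates 4 and 5 and Cre- replicate 2, and above it in Cre- replicates 3 and 4. The first set held 5 of the 7 alpha genes, and the second 5 of the 11 non-ATPases. The median log2 fold changes of both sets between BMAL1 aKO and Cre- libraries were 0.11 and -0.07. These values include the 2 Cre- libraries by which the sets were chosen.

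**Figure D4:**
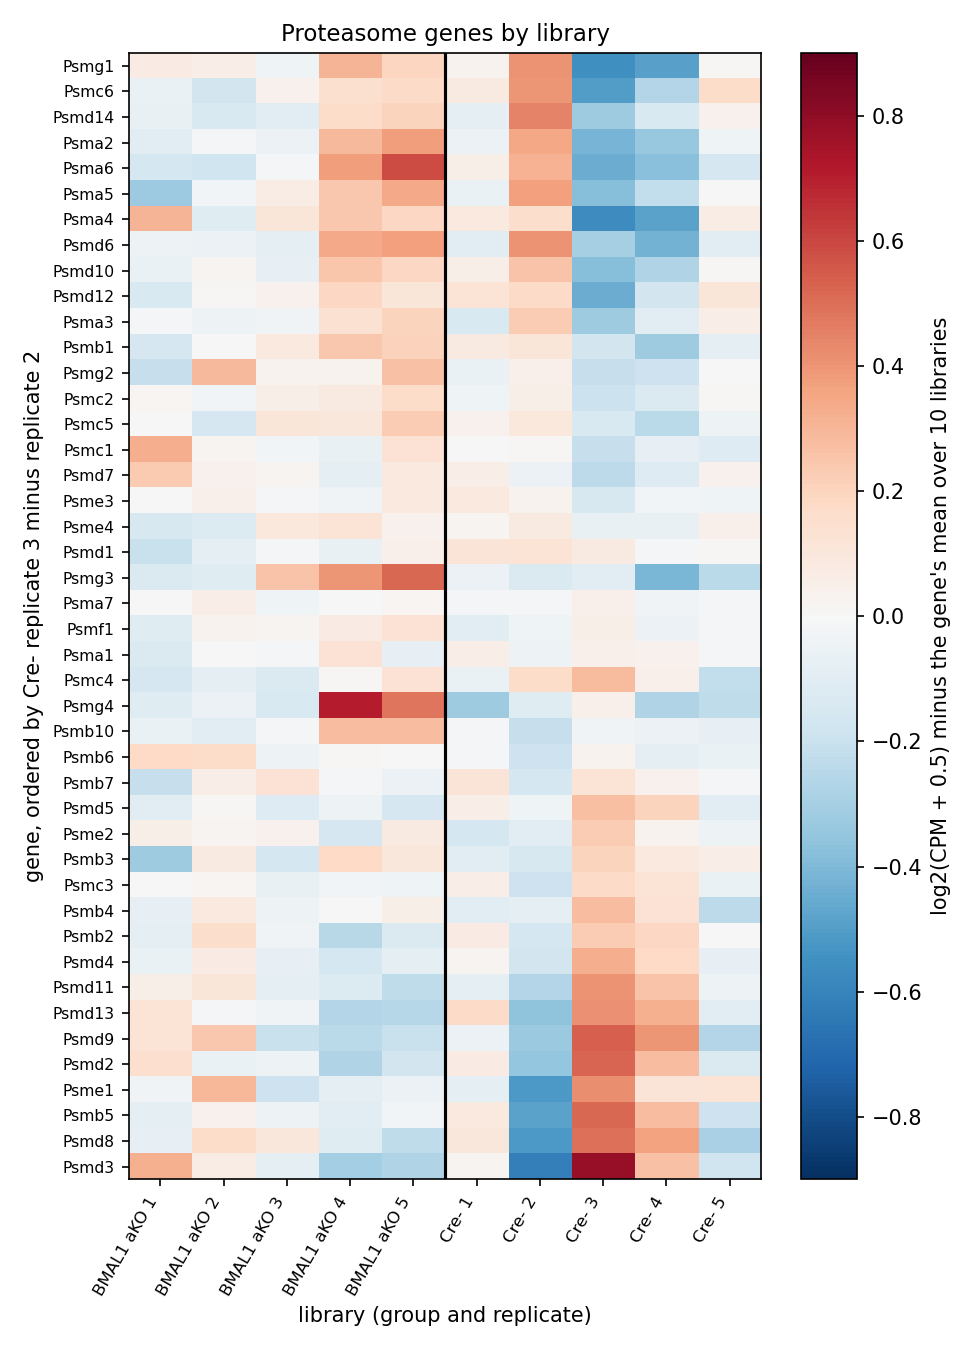
Deviation of log2(CPM + 0.5) from each gene's mean over the 10 libraries (colour, red above and blue below) for the 44 proteasome genes, ordered by the difference of Cre- replicates 3 and 2, with BMAL1 aKO libraries left of the black line. Cre- replicates 3 and 4 show the reverse colours of Cre- replicate 2 and of BMAL1 aKO replicates 4 and 5 at both ends of the order, while Psmg3, Psmg4 and Psmb10 are red in BMAL1 aKO replicates 4 and 5 and not in Cre- replicate 2.

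GC content ran with this difference. The median GC content of the annotated transcripts was 45.8% in the first set and 51.9% in the second. Over the 44 genes the difference of Cre- replicates 3 and 2 correlated with GC content at r = 0.64, and over 12548 genes at r = 0.65. These are correlations across genes of the same 2 libraries, which are no replicates. The mitochondrial share was 16.3, 14.5, 14.6, 17.96 and 17.5% in BMAL1 aKO, against 13.4, 19.9, 6.19, 9.29 and 15.5% in Cre- libraries. It was lowest in Cre- replicates 3 and 4 and highest in Cre- replicate 2 and BMAL1 aKO replicates 4 and 5. The 3 libraries with the highest share also had the fewest reads, 17.96% going with 23127338 reads, 17.5% with 27910920 and 19.9% with 21844770. With this share as a covariate, 0 of the 44 genes were called, 34 were above 0, and 15 signs turned. Of these, 11 turned above 0, with Psmd8 farthest at 0.22 (Psmd3 0.15, Psmb5 0.15, Psmd9 0.13), and 4 turned below 0 (Psmd14 -0.11, Psme4 -0.03, Psma3 -0.01 and Psmd10 -0.0086). Psmb10, with the highest GC content of the set at 58.3%, differed by 0.17 between Cre- replicates 3 and 2, Psmg3 by 0.04 and Psmg4 by 0.16.

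**Figure D5:**
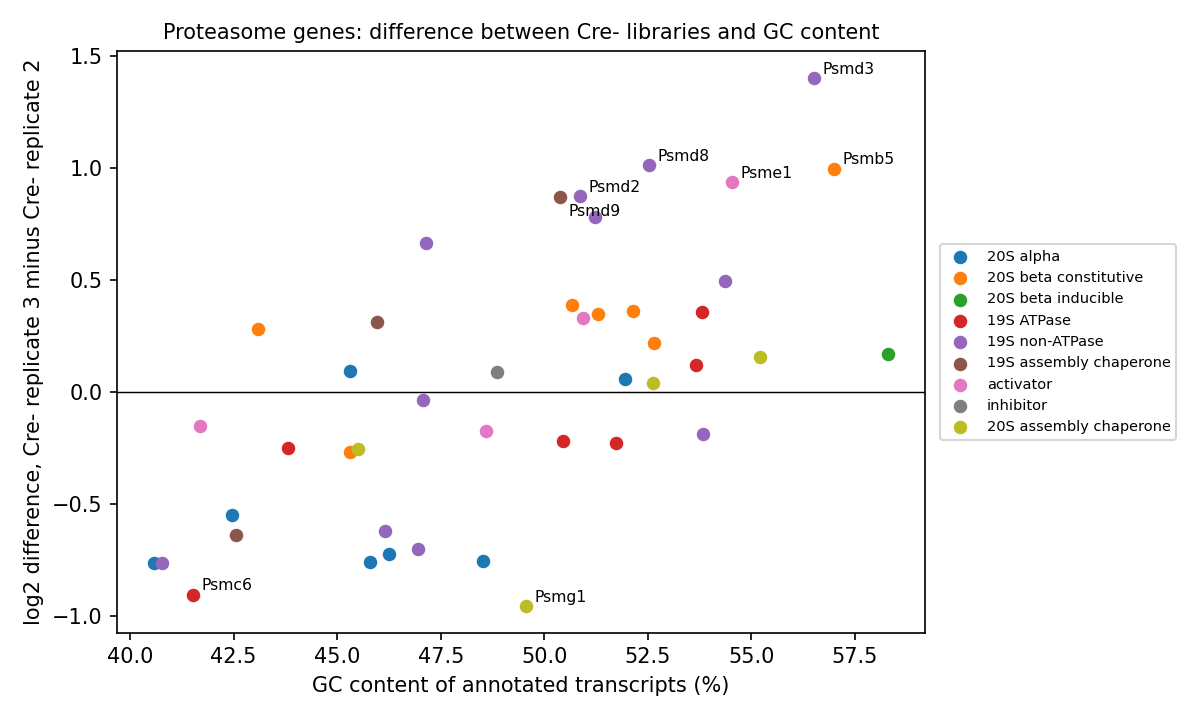
Log2 difference between Cre- replicate 3 and Cre- replicate 2 (y axis) against GC content of the annotated transcripts in percent (x axis) for the 44 proteasome genes, coloured by particle, with the genes past 0.85 in size named. Genes of higher GC content lie higher (r = 0.64 over the 44 genes), from Psmc6 and Psmg1 at the bottom to Psmd3 at the top.

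Genes that work with the proteasome but fall outside the symbols above were listed in 4 groups of 58 genes, of which 47 were measured. None was called (limma), where 0.334% of all genes were. Of the 47, 9 had an unadjusted p below 0.05, against 16.8% of all genes, and 15 were above 0, against 38.4%. The median log2 fold change was -0.05, against -0.04 for all genes. The counts by list that follow stand beside these same shares. Among 11 measured partners and further subunits, 4 were above 0, and the smallest p were those of Ube3c, a ubiquitin ligase on the proteasome (log2 fold change -0.19, adjusted p = 0.212, limma), and of Usp14, a deubiquitinase that docks on the cap (-0.16, adjusted p = 0.221). Among 13 transcriptional regulators and their targets, 2 were above 0. Ddi2, the protease that activates NFE2L1 for the recovery of proteasome genes, was at 66.3 ± 3.46 CPM in BMAL1 aKO and 71.2 ± 6.25 CPM in Cre- libraries (-0.16, adjusted p = 0.237), and Nfe2l2 at 18.6 ± 2.36 and 16.6 ± 2.04 CPM (0.16, adjusted p = 0.367; SD, n = 5 each).

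Among 13 genes of ubiquitin and of delivery to the proteasome, 5 were above 0. Nploc4, a cofactor of the VCP segregase, was at 36.2 ± 5.90 CPM in BMAL1 aKO and 45.7 ± 13.0 CPM in Cre- libraries (SD, n = 5 each), a log2 difference in the fit of -0.23 (adjusted p = 0.329). Of 10 class I antigen presentation genes, whose peptides the immunoproteasome supplies, 4 were above 0, against 38.4% of all genes. An unadjusted p below 0.05 was reached by 5 of them, against 16.8% of all genes (limma). H2-K1, a class I heavy chain, was at 21.1, 21.5, 16.9, 19.03 and 18.3 CPM in BMAL1 aKO, against 13.96, 17.9, 21.2, 16.95 and 16.9 CPM in Cre- libraries (0.33, adjusted p = 0.177, limma). The value was 0.12 without Cre- replicate 1, its lowest library and the one with the highest weight, and 0.16 without weights. Irf1, an interferon regulatory factor that drives the inducible subunits, had the opposite sign, at 2.59, 4.58, 3.10, 4.02 and 3.69 CPM in BMAL1 aKO, against 4.33, 5.04, 5.79, 4.86 and 5.20 CPM in Cre- libraries (-0.31, adjusted p = 0.245, limma). In 4 of its 5 BMAL1 aKO libraries Irf1 lay below all Cre- libraries. The fit without BMAL1 aKO replicate 3 called 2 of these 47, and 844 of 12572 genes in all. The fit without Cre- replicates 2 and 3 called 6 of the 47, and 1511 of 12572 in all.

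The genes of the set lie on 16 chromosomes. Exons of 9 of the 44 overlap an exon on the other strand. Among them are Psmb7 with Nek6, Psme1 with Emc9, Psmc3 with Slc39a13 and Psmd1 with Htr2b. Reads of such pairs cannot be told apart without strand. Exon overlaps on the same strand are annotated for Psmg3 with Gm26938, Psmd1 with Gm21972 and Psmb5 with Mir686. Near-identical copies, at 90% identity or more over at least 200 bases, are annotated for 14 genes, among them Psma3 and Psmb3, and for 2 of the 44, Psma3 and Psmd11, a copy is also in the table. Values of these genes are uncertain to the extent that reads were shared.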

How the data were processed

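RNA of cortical tissue was sequenced from 5 BMAL1 aKO and 5 Cre- mice, grouped by the labels. The authors deposited CPM per gene and library, after alignment to GRCm38 (Ensembl release 76, per the methods) with STAR 2.5.1a and counting with featureCounts 1.4.6-p5 per the submitters' processing notes. The methods describe a removal of ribosomal genes, TMM factors and a low-count filter before the fit. The CPM of each library summed to 99.1 to 99.3% of 1000000, so TMM factors (0.923 to 1.10 when recomputed) are not in them. The methods count fewer BMAL1 aKO mice than the labels and give another age, and all labelled libraries were used here.

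Genes that exceeded 1 CPM in at least 4 of the libraries entered the fit as log2(CPM + 0.5) with limma 3.58.1 in R 4.3.3, with arrayWeights, a variance trend and Benjamini-Hochberg adjustment over 12573 genes at a threshold of 0.1. Fold changes are on this scale, which understates low genes. The fit was also run on simulated data as a check of the code. There the genes were independent and all libraries had equal quality, unlike the real libraries. It therefore says nothing on how far the calls here can be relied on. Alternatives were pseudocounts of 0.1 and 1, no filter or 5 CPM, no weights, TMM, median-of-ratios and quantile scaling, voomWithQualityWeights on recovered reads, a replicate block, an Xist covariate, a threshold of 0.05 and each library left out, and 4 chosen after seeing the data. Tests with edgeR and DESeq2 on the recovered reads were also planned, and were not run.

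Every proteasome gene is accounted for. Values per library are given for the 3 highest and 3 lowest log2 fold changes, the catalytic beta genes, Psme1 and Psme2, and the 2 smallest p of each list of other pathway genes are named, except 1 that is not reported here; further genes given one by one were chosen after their values were seen. The members and lists were chosen with earlier results of these data known. Positions, exon lengths and GC content come from GENCODE M21 (GRCm38), which matched 12550 gene names, and copies from blastn 2.17.0. Figures used matplotlib 3.10.9 in Python 3.11.15 with pandas 2.3.3 and NumPy 2.4.6.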

Additional observations from a re-analysis of the deposited data

Results flagged for a closer look

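Of 26 groups of 5 libraries examined, in the proteasome genes named by rule and in the sum of all 44, 2 had a library far from the others by Dixon's criterion, and chance alone gives about 1 in 20 groups. Psme1 was at 23.3 CPM in BMAL1 aKO replicate 2, against 16.5 to 18.3 CPM in the other BMAL1 aKO libraries. Psme2 was at 9.47 CPM in BMAL1 aKO replicate 4, against 10.7 to 11.2 CPM in the others. Without BMAL1 aKO replicate 2 the log2 fold change of Psme1 was -0.04.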

How the results depend on the processing

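Of the 26 alternatives, 24 called 0 of the proteasome genes, of which the filter at 5 CPM tested 42, without Psmg3 and Psmg4. The exceptions were without BMAL1 aKO replicate 3 (1 gene, Psmg4) and without both Cre- replicates 2 and 3 (2 genes, Psmg4 and Psmd13), so that leaving out 1 library gave 0 to 1. The count over all genes, 42, was 68 with TMM scaling, 65 with quantile normalization, 22 with the Xist covariate, 20 at a threshold of 0.05, 4 without weights, 4 without weights and with TMM, 11 without BMAL1 aKO replicates 4 and 5, 1511 without Cre- replicates 2 and 3, and 1 to 844 with 1 library left out (1 without Cre- replicate 1, 5 without Cre- replicate 5, 10 without BMAL1 aKO replicate 4, 844 without BMAL1 aKO replicate 3). Sample weights did not converge in 3 fits, those without Cre- replicate 1, without Cre- replicate 5 and without Cre- replicates 2 and 3. The count of the 47 other pathway genes called was 0 to 2 with 1 library left out, where 1 to 844 of all genes were called. It was 6 without Cre- replicates 2 and 3, where 1511 of 12572 genes were called.

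The replicate block called 7 genes and none of the 44. Sharing a number did not make libraries alike (correlations of -0.63 to 0.36 between the groups), and 1 of 5 libraries correlated best with its own number.

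Without BMAL1 aKO replicates 4 and 5, the values were -0.0013 for Psma5, -0.10 for Psma6, -0.0023 for Psmc5, -0.015 for Psmb10 and for the inducible median, 0.057 for Psmd3 and 0.034 for Psmb10 minus Psmb7. With the mitochondrial share as a covariate they were 0.15 for Psmb5, 0.042 for Psmb7, 0.024 for Psmd2, 0.15 for Psmd3 and 0.22 for Psmd8, and -0.013 for Psma3 and -0.11 for Psmd14, among 15 that turned. Psmb7 was 0.0096 with the Xist covariate and 0.014 without weights and with TMM. Psme1 was -0.022 without weights and -0.11 with the replicate block. The activator median was 0.057 without weights and with TMM. With 1 library left out, Psmb5 ran from -0.15 to 0.045, Psmb7 from -0.12 to 0.026, Psme1 from -0.093 to 0.047 and the median of the 19S assembly chaperones from -0.17 to 0.028. The causes were not tested. In all, 26 of the 44 genes changed sign in at least 1 fit, each of which was at most 0.17 in size. Counting error at the lowest read number was 11.1% for Psmg3 and 10.4% for Psmg4 and 1.90 to 6.84% for the others, and it came near or above the spread over the libraries for Psme2 (6.84%, against a coefficient of variation of 8.63%) and Psma7 (2.93%, against 2.18%). The planned edgeR and DESeq2 tests on recovered reads were not run.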
